A study of Mus musculus with 12 samples.

Results

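Matrix metalloproteinases (MMPs) and their inhibitors were followed across 12 whole-lung libraries of neonatal mice. The set held 10 genes chosen by symbol from the 52550 genes of the count table: the proteases *Mmp2*, *Mmp3*, *Mmp8*, *Mmp9*, *Mmp12*, *Mmp13* and *Mmp14*, and the inhibitors *Timp1*, *Timp2* and *Timp3*. All 10 were among the 15885 protein-coding genes tested. The mice were WT (Adm+/+) or Adm+/-, which carry 1 intact copy of the gene for the vasoactive peptide adrenomedullin, on the C57Bl/6J background, and the deletion is present in all of their cells. Both genotypes were injected into the peritoneum with lipopolysaccharide (LPS) of *E. coli* O55:B5, a bacterial endotoxin, or, as controls, phosphate-buffered saline (PBS). Each dose of LPS was 6 mg/kg, repeated on 3 successive days from postnatal day 3 to day 5, and lungs were collected 6 h after the last dose. Each of the 4 groups held 3 mice: WT PBS (replicates 3, 4 and 5), WT LPS (9, 10 and 11), Adm+/- PBS (6, 7 and 8) and Adm+/- LPS (1, 2 and 12). The sex of the mice is not given in the labels.

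MMPs are zinc-dependent proteases that are made as inactive proenzymes and cut collagen, elastin, gelatin and other parts of the extracellular matrix, as well as cytokines and chemokines. TIMPs are secreted proteins that bind the active site of MMPs in equal proportion and block it, and some of them also inhibit ADAM proteases. In the lung, MMP2 and MMP14 come largely from mesenchymal, epithelial and endothelial cells and take part in growth, whereas MMP8 and MMP9 are stored in neutrophil granules and MMP12 is the elastase of macrophages.

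Total counts per library ranged from 22382535 to 38062873. Values are given as CPM, counts scaled to the library size after TMM normalization, and levels of different genes are compared as RPKM, which is CPM divided by exon length in kilobases. Calls required an absolute log2 fold change above 0.5 and, from edgeR's quasi-likelihood F-test, a p-value under 0.05 after Benjamini-Hochberg adjustment over all 15885 genes. The targeted gene, *Adm*, had 2.87 to 8.15 CPM, with overlap of the genotypes in both treatments, and whether the counted reads cover the deleted part is not known. Type II pneumocyte markers summed to 13128 to 16977 CPM over the libraries, led by *Sftpc* with 7628 to 11605 CPM. WT PBS replicate 5 and Adm+/- PBS replicate 6 stood apart in composition, with 77.8% and 80.1% of counts in protein-coding genes where the other 10 had 84.3% to 87.6%, and leaving out both changed no call of the 10 genes. Skeletal muscle markers summed to 2595 to 5638 CPM in the WT LPS libraries against 384 to 879 CPM in the other 9, and squamous epithelium markers to 31.3 to 3027 CPM against 5.54 to 47.5 CPM. The part of that tissue in the values of WT LPS cannot be told apart from the treatment, nor from the genotype in LPS, where the Adm+/- libraries had 539 to 632 CPM of muscle and 10.6 to 47.5 CPM of squamous markers. In bulk lung RNA, fewer cells of a type and less RNA per cell cannot be told apart either.

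On chromosome 9 of mm10, 10 MMP genes lie within 427.1 kb (7272514 to 7699585), and 4 of them, *Mmp13*, *Mmp12*, *Mmp3* and *Mmp8*, belong to the set. RefSeq promoter windows of GRCm38.p6, 250 bases before to 50 bases after the start, were held for 8 of the 10 genes in 9 entries (*Mmp12* has 2 starts), and those of *Mmp2* and *Mmp9* were not analysed here. An AP-1 motif (TGANTCA, which reads the same on both strands) was found in 3 of them, starting 35 bases before the start of *Mmp13*, 46 bases before that of *Mmp3* and 44 bases before the downstream start of *Mmp12*. Among all 32851 windows, 7.81% held this motif and 1.82% held it within the 70 bases before the start. A C/EBP motif (TTNNGCAA, on either strand), present in 10.8% of all windows, lay 19 bases before the start of *Mmp8*, 148 bases before that of *Mmp3* and 39 bases before the upstream start of *Mmp12*. An NF-kappa B motif, present in 8.46% of windows, lay 129 bases before the upstream start of *Mmp12*. None of the motifs, nor a STAT motif (TTCNNNGAA) that 8.3% of windows hold, was found for *Mmp14*, *Timp1*, *Timp2* or *Timp3*. These matches are descriptions of letters and not evidence of binding. The 100 bases before the start are printed for the 4 clustered genes, with the AP-1 motif (*Mmp13*, *Mmp3*, *Mmp12*) or the C/EBP motif (*Mmp8*) in capitals. For *Mmp12* only the downstream start is printed. *Timp1* and *Timp3*, whose windows held no match, are not printed although they rose after LPS too. All 4 are on the plus strand.
Mmp13, chr9:7272414-7272513: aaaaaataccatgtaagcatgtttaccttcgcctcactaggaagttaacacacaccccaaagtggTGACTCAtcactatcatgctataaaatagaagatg
Mmp12, chr9:7347274-7347373: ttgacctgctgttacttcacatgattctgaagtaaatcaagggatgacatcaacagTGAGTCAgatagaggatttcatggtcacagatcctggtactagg
Mmp3, chr9:7445722-7445821: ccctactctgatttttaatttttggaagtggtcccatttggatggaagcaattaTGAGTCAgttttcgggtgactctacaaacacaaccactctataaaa
Mmp8, chr9:7558329-7558428: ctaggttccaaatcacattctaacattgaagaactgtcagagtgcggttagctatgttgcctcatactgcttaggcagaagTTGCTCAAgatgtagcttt

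In the control lung, the set divided into abundant and scarce transcripts. In WT PBS, *Mmp2* led with 118 ± 9.84 RPKM (SD, n = 3), followed by *Timp2* with 96.6 ± 5.47, *Mmp14* with 59.7 ± 5.26 and *Timp3* with 34.7 ± 8.44 RPKM. The ranges of these 4 genes did not overlap with their neighbours in the order. *Timp1* had 5.64 ± 3.50 RPKM, *Mmp9* 2.06 ± 1.10 and *Mmp8* 1.86 ± 2.09 RPKM, and their ranges overlapped. *Mmp3*, *Mmp13* and *Mmp12* followed with mean levels of 0.229, 0.182 and 0.0705 RPKM, again with overlap. Adm+/- PBS lungs had the same 7 genes at the top in the same order, from *Mmp2* with 119 ± 4.38 RPKM to *Mmp8* with 0.538 ± 0.184 RPKM.

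LPS up-regulated 5 of the 10 genes in WT lungs (*Mmp8*, *Mmp9*, *Mmp12*, *Timp1* and *Timp3*) and 7 of 10 in Adm+/- lungs (the same 5 with *Mmp3* and *Mmp13*), and down-regulated none. For comparison, 17.6% of all tested genes were called in WT mice (10.5% higher) and 25% in Adm+/- mice (12.8% higher). The median log2 fold change of the 10 genes was 1.59 in WT and 3.55 in Adm+/- lungs, beside 0.01 and −0.01 over all tested genes. The 10 genes were chosen with earlier results of these data known, so these comparisons describe the set and are no test of it. For the 12 other tested MMP and TIMP genes the medians were 0.13 and −0.11. LPS and PBS libraries did not overlap for 6 of the 10 genes in WT mice and for 9 of 10 in Adm+/- mice, where 36.2% and 53.7% of all genes did not overlap. The plot of levels by library shows the 10 genes side by side.

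**Figure D1:**
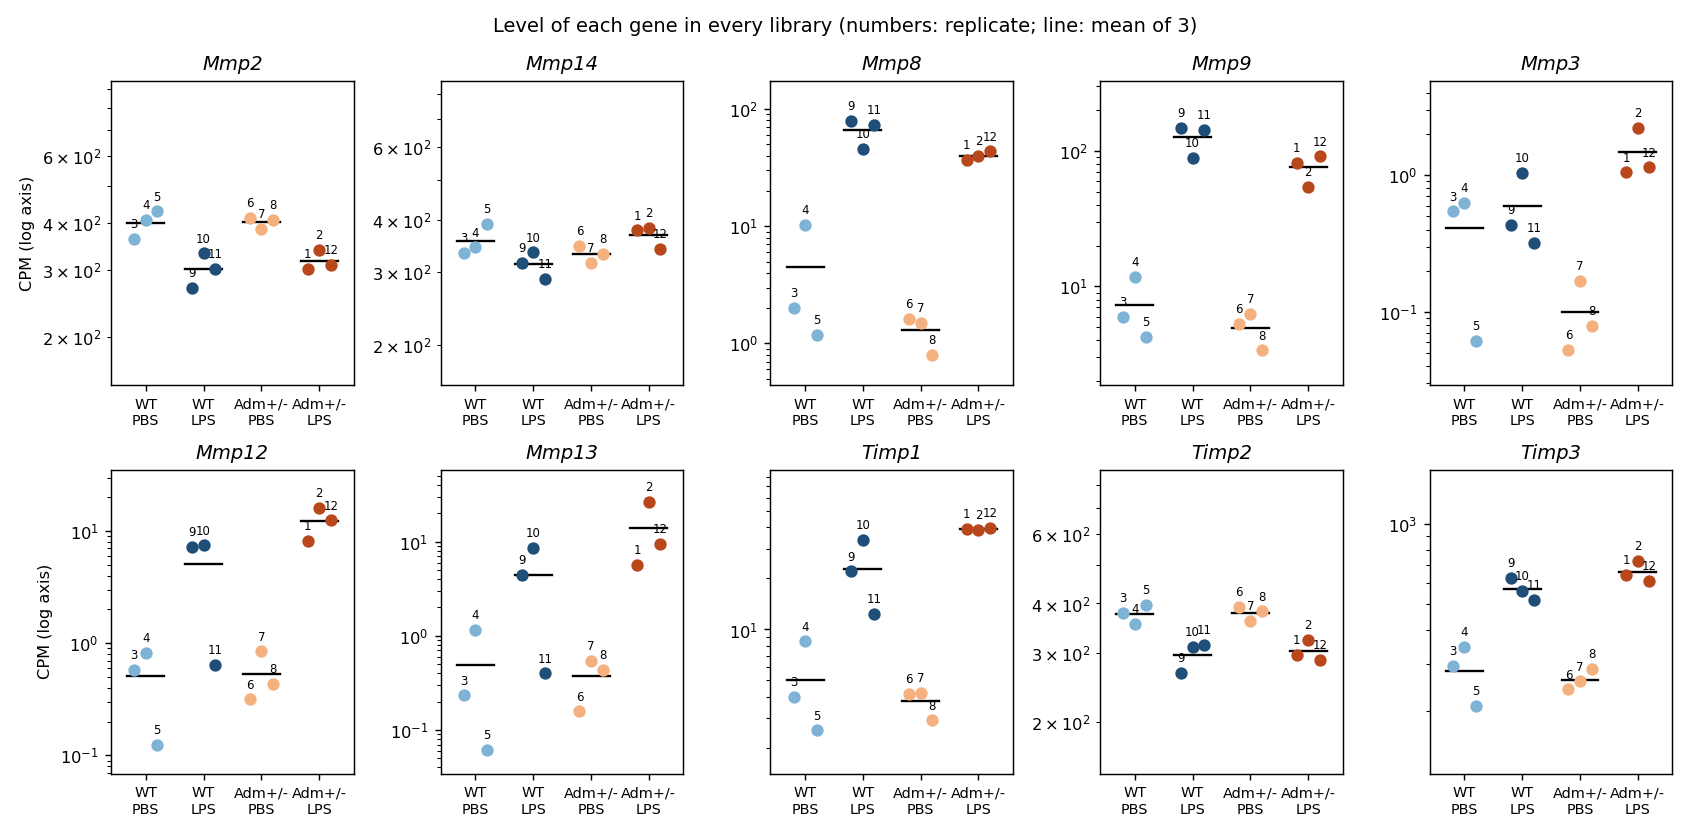
Level of each of the 10 genes in every library, in CPM on a log axis that differs between panels. Points are mice with their replicate number, coloured by group, and the black line is the mean of the 3 mice of a group. *Mmp8* and *Mmp9* are separated by LPS in both genotypes, whereas for *Mmp12* and *Mmp13* WT LPS replicate 11, at 0.637 and 0.398 CPM, lies among the PBS libraries.

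*Mmp8* (ENSMUSG00000005800, chromosome 9, 7558456 to 7568485) and *Mmp9* (ENSMUSG00000017737, chromosome 2, 164940780 to 164955850) encode the collagenase and the gelatinase of neutrophil granules. *Mmp8* had 2.02, 10.3 and 1.17 CPM in WT PBS, 78.8, 45.5 and 73.6 CPM in WT LPS, 1.63, 1.49 and 0.795 CPM in Adm+/- PBS and 36.7, 39.6 and 43.5 CPM in Adm+/- LPS, in the order of replicates given above. All LPS libraries thus lay above all PBS libraries, and WT PBS replicate 4 was the highest control. The log2 fold change of *Mmp8* was 3.86 (SE 0.60, edgeR adjusted p = 0.00151) in WT and 4.94 (SE 0.66, edgeR adjusted p = 0.000305) in Adm+/- lungs. Without WT PBS replicate 4 the WT value was 5.32 (edgeR adjusted p = 3.02e-05). *Mmp9* had 5.94, 11.7 and 4.26 CPM in WT PBS against 148, 88.2 and 143 CPM in WT LPS, and 5.31, 6.25 and 3.38 CPM in Adm+/- PBS against 80.9, 54.3 and 90.8 CPM in Adm+/- LPS. The lowest LPS library of *Mmp9* was 54.3 CPM and the highest PBS library 11.7 CPM. With 95% intervals of its log2 fold change of 3.26 to 4.95 in WT and 3.07 to 4.76 in Adm+/- lungs, *Mmp9* was the most precisely estimated of the 5 scarce proteases.

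Neutrophil markers, most abundantly *Lcn2*, *S100a9* and *S100a8*, moved with these genes. Of 14 tested neutrophil markers, 13 were called higher in WT and 14 in Adm+/- lungs, beside 10.5% and 12.8% of all tested genes. The markers summed to 87.5 to 259 CPM in WT PBS, 2282 to 4115 in WT LPS, 77.5 to 101 in Adm+/- PBS and 3000.5 to 3364 CPM in Adm+/- LPS. Of these sums, *Lcn2* alone had 323 to 958 CPM in WT LPS and 1187 to 1632 CPM in Adm+/- LPS. WT PBS replicate 4, the control with the most *Mmp8* and *Mmp9*, was also the control with the most neutrophil marker RNA, for example 32.95 CPM of *S100a8* against 9.36 and 3.58 CPM in the other WT PBS libraries. Under LPS, *S100a8* was 793, 396 and 469 CPM in WT and 436, 440.0 and 527 CPM in Adm+/- lungs. Macrophage markers, most abundantly *Lyz2*, *Csf1r* and *Mrc1*, were called higher for 9 of 14 genes in WT and for 8 of 14 in Adm+/- lungs, with 1 lower, and summed to 1118 to 1351 CPM in WT PBS and 1755 to 2467 CPM in WT LPS, against 1075 to 1299.7 CPM in Adm+/- PBS and 1768 to 2319 CPM in Adm+/- LPS. The part of these cells in the values of the MMPs was not tested.

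*Mmp12* (ENSMUSG00000049723, chromosome 9, 7344381 to 7369499), the macrophage elastase, and *Mmp13* (ENSMUSG00000050578, chromosome 9, 7272514 to 7283331), an interstitial collagenase, shared a pattern across libraries. *Mmp12* had 0.582, 0.825 and 0.124 CPM in WT PBS and 7.24, 7.44 and 0.637 CPM in WT LPS. In Adm+/- lungs it had 0.316, 0.845 and 0.437 CPM in PBS and 8.15, 16.0 and 12.4 CPM in LPS. The groups were separate in Adm+/- mice, but WT LPS replicate 11 lay within the WT PBS range. The log2 fold change of *Mmp12* was 3.26 (SE 0.80, edgeR adjusted p = 0.0153) in WT and 4.45 (SE 0.79, edgeR adjusted p = 0.00161) in Adm+/- lungs. The WT call was lost without WT LPS replicate 9 (2.91, edgeR adjusted p = 0.061), with limma-voom (2.91, adjusted p = 0.113) and in a fit of the 6 WT libraries alone (3.26, edgeR adjusted p = 0.0759), while the fold change stayed close to that of the full fit. *Mmp13* had 0.233, 1.16 and 0.0618 CPM in WT PBS, 4.41, 8.61 and 0.398 CPM in WT LPS, 0.158, 0.541 and 0.437 CPM in Adm+/- PBS and 5.68, 26.4 and 9.55 CPM in Adm+/- LPS. WT LPS replicate 11 again lay among the controls, and Adm+/- LPS replicate 2 was the highest library. *Mmp13* was up-regulated by 5.11 on the log2 scale in Adm+/- lungs (SE 1.07, edgeR adjusted p = 0.0042), or 4.25 without Adm+/- LPS replicate 2, and narrowly missed the threshold in WT lungs, at 3.16 (SE 1.05, edgeR adjusted p = 0.0517). Without WT PBS replicate 4, which had the highest *Mmp13* of the PBS libraries, the WT value was 4.72 (edgeR adjusted p = 0.039), and it passed as well without WT LPS replicate 11 (edgeR adjusted p = 0.0138) or Adm+/- LPS replicate 2 (edgeR adjusted p = 0.0499), and with DESeq2 over all libraries (adjusted p = 0.0246).

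*Mmp3* (ENSMUSG00000043613, chromosome 9, 7445822 to 7455975), stromelysin 1, which also activates other MMP proenzymes, was among the scarcest members, and its values rest on few reads. It had 14, 13 and 1 counts in WT PBS, 14, 25 and 8 in WT LPS, 1, 5 and 2 in Adm+/- PBS and 28, 53 and 32 in Adm+/- LPS. These counts correspond to 0.544, 0.631 and 0.0618 CPM, 0.431, 1.04 and 0.319 CPM, 0.0526, 0.169 and 0.0795 CPM, and 1.05, 2.22 and 1.14 CPM. The 3 Adm+/- LPS libraries were the highest of the 12, the lowest of them just above WT LPS replicate 10, while the WT groups overlapped. The log2 fold change was 3.71 in Adm+/- lungs (SE 0.72, edgeR adjusted p = 0.00269), or 4.33 without Adm+/- PBS replicate 7, and 0.44 in WT lungs (SE 0.63, edgeR adjusted p = 0.644). Of the 50-base stretches of *Mmp3* transcripts, 8.39% also occur in other genes, chiefly *Mmp10*, whose level stayed at or below 0.587 CPM.

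Both abundant proteases stayed under the fold threshold. *Mmp2* (ENSMUSG00000031740, chromosome 8, 92827291 to 92853420), gelatinase A, had 363, 406 and 428 CPM in WT PBS and 269.5, 332 and 302 CPM in WT LPS. In Adm+/- lungs it had 412, 384 and 406 CPM in PBS and 302, 339 and 309 CPM in LPS. All LPS libraries lay below all PBS libraries of both genotypes. The highest *Mmp2* of each PBS group was in WT PBS replicate 5 and Adm+/- PBS replicate 6, in which fibroblast markers summed to 34035 and 23892 CPM against 10446 to 15548 CPM elsewhere, and their part in the values was not tested. The log2 fold change of −0.40 in WT (SE 0.10, edgeR adjusted p = 0.0177) and −0.34 in Adm+/- lungs (SE 0.10, edgeR adjusted p = 0.0265) was under the fold threshold, so *Mmp2* was not called. *Mmp14* (ENSMUSG00000000957, chromosome 14, 54431612 to 54445364), the membrane-bound activator of MMP2, had 333, 343 and 392 CPM in WT PBS, 316, 334 and 289 CPM in WT LPS, 346, 315 and 331 CPM in Adm+/- PBS and 378, 383 and 340.5 CPM in Adm+/- LPS. Its LPS and PBS libraries overlapped in both genotypes, with log2 fold changes of −0.19 (edgeR adjusted p = 0.191) and 0.15 (edgeR adjusted p = 0.269).

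The 3 inhibitors responded in different ways. *Timp1* (ENSMUSG00000001131, chromosome X, 20870166 to 20874735), known as the inflammation-inducible TIMP, had 4.0, 8.49 and 2.53 CPM in WT PBS and 22.004, 33.9 and 12.4 CPM in WT LPS. In Adm+/- lungs it had 4.16, 4.22 and 2.90 CPM in PBS and 39.3, 38.9 and 39.9 CPM in LPS. The Adm+/- LPS mice were nearly identical, whereas WT LPS mice covered a wide range with replicate 11 lowest. *Timp1* was up-regulated by 2.18 on the log2 scale in WT (SE 0.41, edgeR adjusted p = 0.00455), or 2.78 without WT PBS replicate 4, and by 3.39 in Adm+/- lungs (SE 0.43, edgeR adjusted p = 0.000238). *Timp3* (ENSMUSG00000020044, chromosome 10, 86300372 to 86349506), which is bound to the matrix and also inhibits ADAM17, had 293, 345 and 209 CPM in WT PBS, 628, 559.9 and 518 CPM in WT LPS, 240.4, 257 and 287 CPM in Adm+/- PBS and 643, 726 and 612 CPM in Adm+/- LPS. Its LPS libraries were all above its PBS libraries. The log2 fold change of *Timp3* was 1.01 in WT (SE 0.16, edgeR adjusted p = 0.00186) and 1.34 in Adm+/- lungs (SE 0.16, edgeR adjusted p = 0.000202). *Timp2* (ENSMUSG00000017466, chromosome 11, 118301069 to 118355740), the inhibitor that also takes part in activation of MMP2 by MMP14, had 378, 354 and 397 CPM in WT PBS, 266, 309.8 and 314 CPM in WT LPS, 393, 362 and 382 CPM in Adm+/- PBS and 296, 323 and 288 CPM in Adm+/- LPS. As for *Mmp2*, its LPS libraries all lay below its PBS libraries while the change missed the fold threshold, at −0.34 in WT (SE 0.09, edgeR adjusted p = 0.0255) and −0.33 in Adm+/- lungs (SE 0.09, edgeR adjusted p = 0.0226). Of the 50-base stretches of *Timp3* transcripts, 21.4% occur in other genes, chiefly in the overlapping *Syn3*. *Timp1* and *Timp3* lie inside *Syn1* and *Syn3* on the opposite strand, which had 41 to 88 and 106 to 267 counts per library, and *Timp2* holds *Cep295nl* on its own strand, with 121 to 318 counts. For *Timp1*, the count of *Syn1* was 4.42% to 115% of its own, the latter in a PBS library, and for *Timp2* and *Timp3* such counts were at most 4.06% and 3.13% of theirs.

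**Figure D2:**
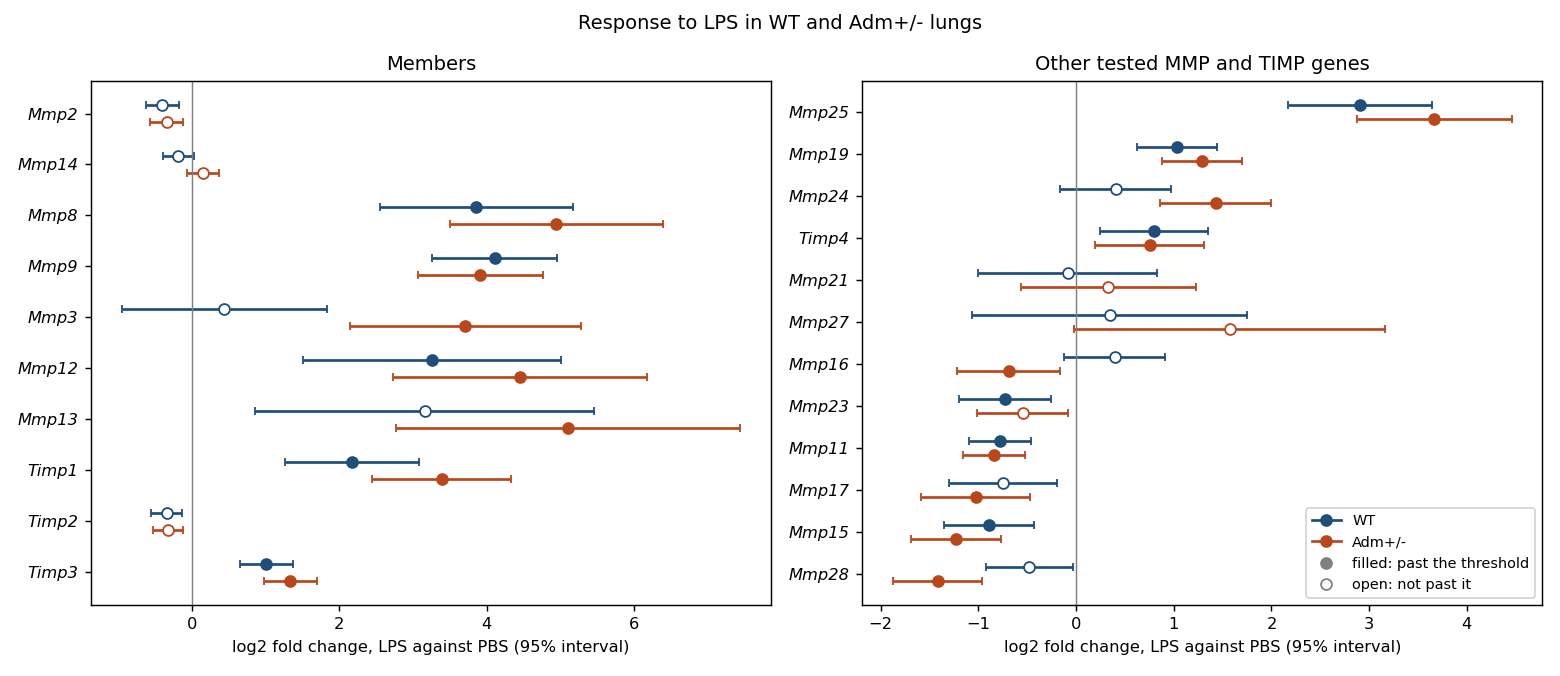
Log2 fold change of LPS against PBS with its 95% interval from the edgeR fit, in WT (dark blue) and Adm+/- (rust) lungs, for the 10 genes (left) and the 12 other tested MMP and TIMP genes (right). Filled points passed the threshold. The called genes on the left all lie above 0, from 1.01 for *Timp3* in WT to 5.11 for *Mmp13* in Adm+/- lungs, and called genes on the right lie on both sides.

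Per length, the make-up of the pool differed between PBS and LPS lungs. The 5 scarce proteases *Mmp3*, *Mmp8*, *Mmp9*, *Mmp12* and *Mmp13*, grouped after their values were seen, made up 2.41% ± 1.90 (SD, n = 3) of the summed RPKM of the 7 proteases in WT PBS and 31.5% ± 6.78 in WT LPS. Within WT PBS the share was 4.54% in replicate 4 and 1.79% and 0.906% in replicates 3 and 5. In Adm+/- lungs these proteases made up 1.26% ± 0.387 in PBS and 22.6% ± 2.02 in LPS. Of the mean 65.6 RPKM of these 5 genes in WT LPS, *Mmp9* had 35.7 ± 9.39 and *Mmp8* 27.2 ± 7.39 RPKM. Of the mean 45.5 RPKM in Adm+/- LPS, *Mmp9* had 21.3 ± 5.32, *Mmp8* 16.5 ± 1.39 and *Mmp13* 5.19 ± 4.12 RPKM, with 9.87 RPKM of *Mmp13* in replicate 2. Within the inhibitors, *Timp3* made up 25.2% ± 5.07 of the summed RPKM in WT PBS and 40.8% ± 4.25 in WT LPS, and *Timp1* 4.05% ± 2.35 and 14.6% ± 5.84. In Adm+/- lungs the share of *Timp3* was 24.0% ± 2.02 in PBS and 39.9% ± 1.28 in LPS, and that of *Timp1* 3.18% ± 0.689 and 21.9% ± 1.46. The ratio of summed TIMP to summed MMP levels, which does not depend on library scaling, was 0.671 to 0.826 in WT PBS, 0.756 to 0.918 in WT LPS, 0.740 to 0.769 in Adm+/- PBS and 0.978 to 1.03 in Adm+/- LPS. The LPS and PBS ranges of this ratio overlapped in WT lungs and were apart in Adm+/- lungs, and the Adm+/- LPS libraries were above all others. No test was made of this ratio, which describes transcripts and not active protein.

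**Figure D3:**
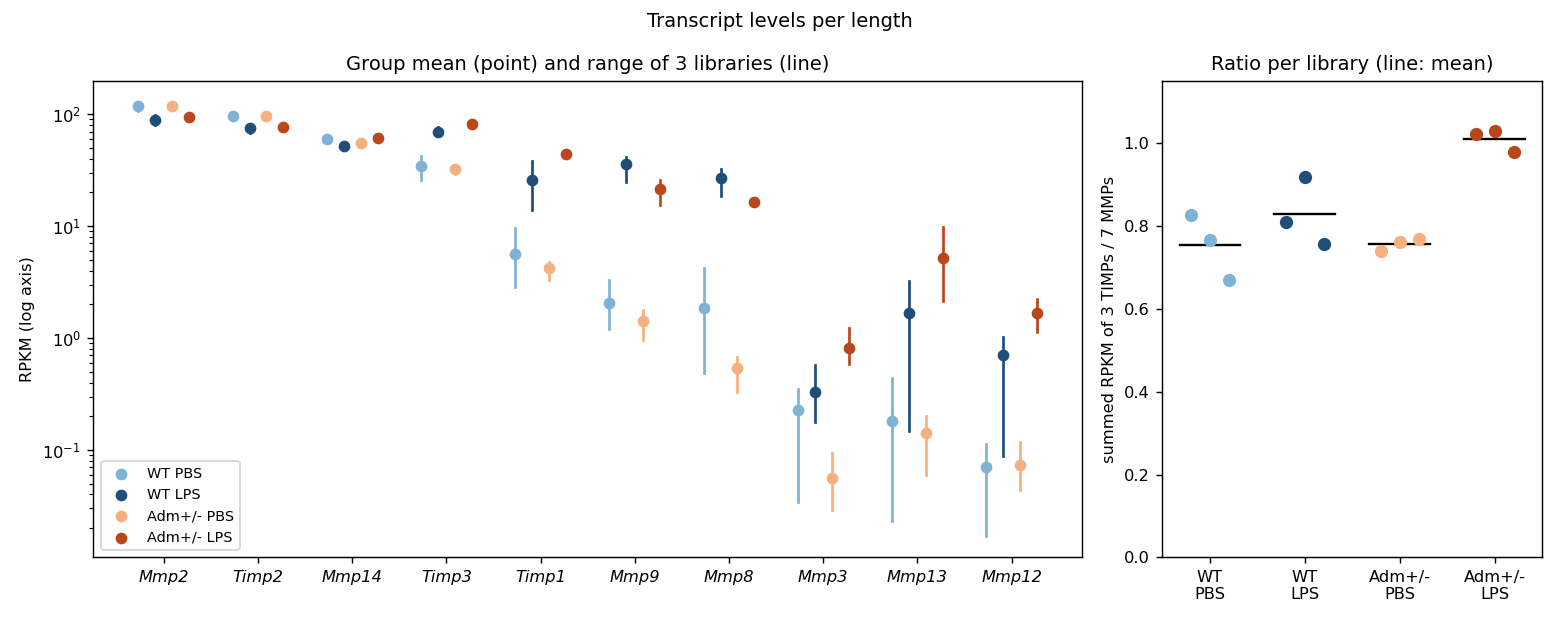
Left, mean RPKM of each gene per group on a log axis (points), with lines for the range of the 3 libraries. Right, summed RPKM of the 3 TIMPs divided by that of the 7 MMPs in each library, with a line for the group mean, on an axis from 0. *Mmp2* has the highest mean in all groups, and the ratio is 1.01 ± 0.0277 (SD, n = 3) in Adm+/- LPS against 0.754 to 0.828 for the means of the other groups.

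The comparison of genotypes asked whether loss of 1 *Adm* copy changed the set at rest or its response to LPS. None of the 10 genes was called between Adm+/- and WT lungs in PBS, between them in LPS, or in the difference between the LPS responses, with edgeR, DESeq2 or limma-voom. Unadjusted edgeR p-values were below 0.05 for 2, 3 and 2 of the 10 genes, and for 344, 2275 and 1247 of all 15885. Of all tested genes, 0% were called in PBS by edgeR (nor did DESeq2 or limma-voom call any), 2.05% in LPS and 0.145% in the difference. In PBS the groups overlapped for all 10 genes, with 4.99% of all genes apart, and the edgeR adjusted p was 0.999 for each. The lowest estimates there were −1.97 on the log2 scale for *Mmp3* (95% interval −3.75 to −0.18) and −1.81 for *Mmp8* (−3.24 to −0.37), and the other 8 lay between −0.56 and 0.06. Without WT PBS replicate 4 the value of *Mmp8* was −0.34, and those of *Mmp13* and *Timp1* turned from below 0 to 1.25 and 0.18. Without Adm+/- PBS replicate 7 that of *Mmp3* was −2.59. In LPS the genotypes were apart for 5 of 10 genes, with 24.6% of all genes apart. *Mmp8* was lower in all 3 Adm+/- LPS mice than in any WT LPS mouse, and *Mmp3*, *Mmp12*, *Mmp14* and *Timp1* were higher. In the same comparison 11 of 14 muscle markers and 4 of 9 tested squamous markers were called lower in Adm+/- lungs, and 5 muscle markers were called in the difference between the responses, so their part cannot be told apart from the genotype.

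For the neutrophil proteases, the value in Adm+/- against WT LPS lungs was −0.72 on the log2 scale for *Mmp8* (95% interval −1.86 to 0.42, edgeR adjusted p = 0.635) and −0.75 for *Mmp9* (−1.48 to −0.02, edgeR adjusted p = 0.337). It was 1.31 for *Mmp3* (0.08 to 2.53, edgeR adjusted p = 0.307), 1.25 for *Mmp12* (−0.15 to 2.65, edgeR adjusted p = 0.426) and 1.63 for *Mmp13* (−0.20 to 3.47, edgeR adjusted p = 0.427). The value of *Mmp13* was 0.77 without Adm+/- LPS replicate 2 and 2.49 without WT LPS replicate 10, and without the latter that of *Mmp3* was 1.93. *Timp1* differed by 0.79 (−0.05 to 1.63, edgeR adjusted p = 0.393). The estimates therefore had opposite signs for the neutrophil proteases and for these 4 genes, and none passed the threshold. For the abundant genes the intervals were narrow, from −0.15 to 0.29 for *Mmp2*, 0.02 to 0.44 for *Mmp14*, −0.18 to 0.23 for *Timp2* and −0.14 to 0.57 for *Timp3*. For *Mmp2*, *Mmp14* and *Timp2*, differences above the 0.5 threshold thus lay outside the intervals. The difference between the LPS responses was largest for *Mmp3*, at 3.27 (1.11 to 5.43, edgeR adjusted p = 0.401), followed by 1.95 for *Mmp13* (−1.41 to 5.31, edgeR adjusted p = 0.909), 1.21 for *Timp1* (−0.04 to 2.47, edgeR adjusted p = 0.654), 1.19 for *Mmp12* (−1.29 to 3.68, edgeR adjusted p = 0.962) and 1.08 for *Mmp8* (−0.74 to 2.91, edgeR adjusted p = 0.901). Without WT PBS replicate 4, that of *Mmp8* turned to −0.38, and those of *Mmp13*, *Timp1* and *Mmp12* moved to 0.38, 0.61 and 0.75. Without WT LPS replicate 10, those of *Mmp3* and *Mmp13* were 3.90 and 2.81. That of *Mmp3* was 3.89 without Adm+/- PBS replicate 7, and that of *Mmp13* 1.09 without Adm+/- LPS replicate 2.

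**Figure D4:**
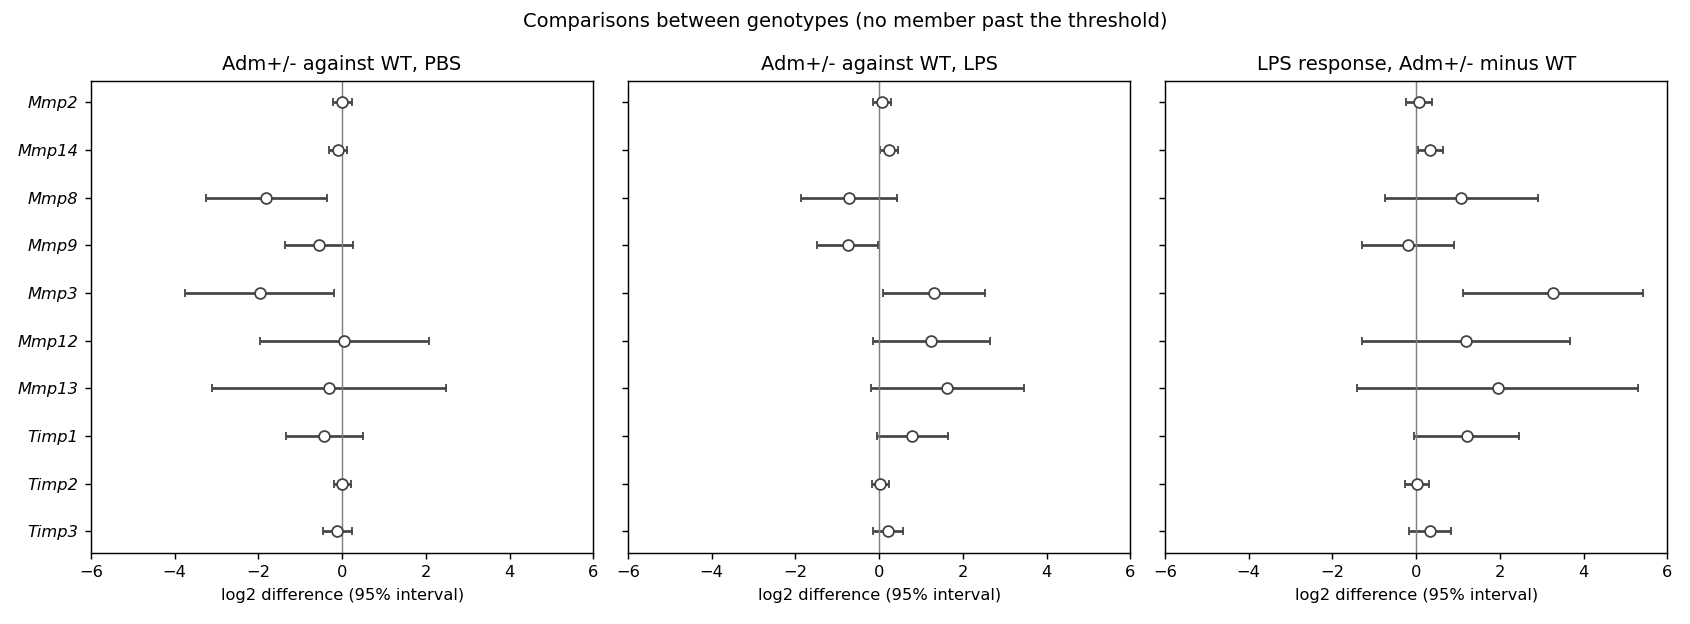
Log2 difference with its 95% interval for the 10 genes in the 3 comparisons between genotypes, from the edgeR fit. Open points did not pass the threshold, which holds for all. Intervals are narrow for *Mmp2*, *Mmp14* and *Timp2* and wide for the scarce *Mmp3*, *Mmp12* and *Mmp13*.

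Libraries of the same group differed in a way that several members shared. WT LPS replicate 11 had high *Mmp8* (73.6 CPM) and *Mmp9* (143 CPM) together with the lowest *Mmp3*, *Mmp12*, *Mmp13*, *Timp1* and *Timp3* of the WT LPS libraries. WT LPS replicate 10 showed the reverse, with the lowest *Mmp8* and *Mmp9* of its group and the highest *Mmp3*, *Mmp12*, *Mmp13* and *Timp1*. In Adm+/- LPS, replicate 2 had the lowest *Mmp9* and the highest *Mmp3*, *Mmp12*, *Mmp13* and *Timp3*. Neutrophil markers in WT LPS replicates 10 and 11 summed to 2446 and 2282 CPM, but single markers differed in their order. *Lcn2* had 627 and 323 CPM, whereas *S100a9* had 510 and 534 CPM and *S100a8* 396 and 469 CPM. Squamous markers summed to 31.3 and 1563 CPM in these libraries. The part of either list in the differences between libraries was not tested.

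**Figure D5:**
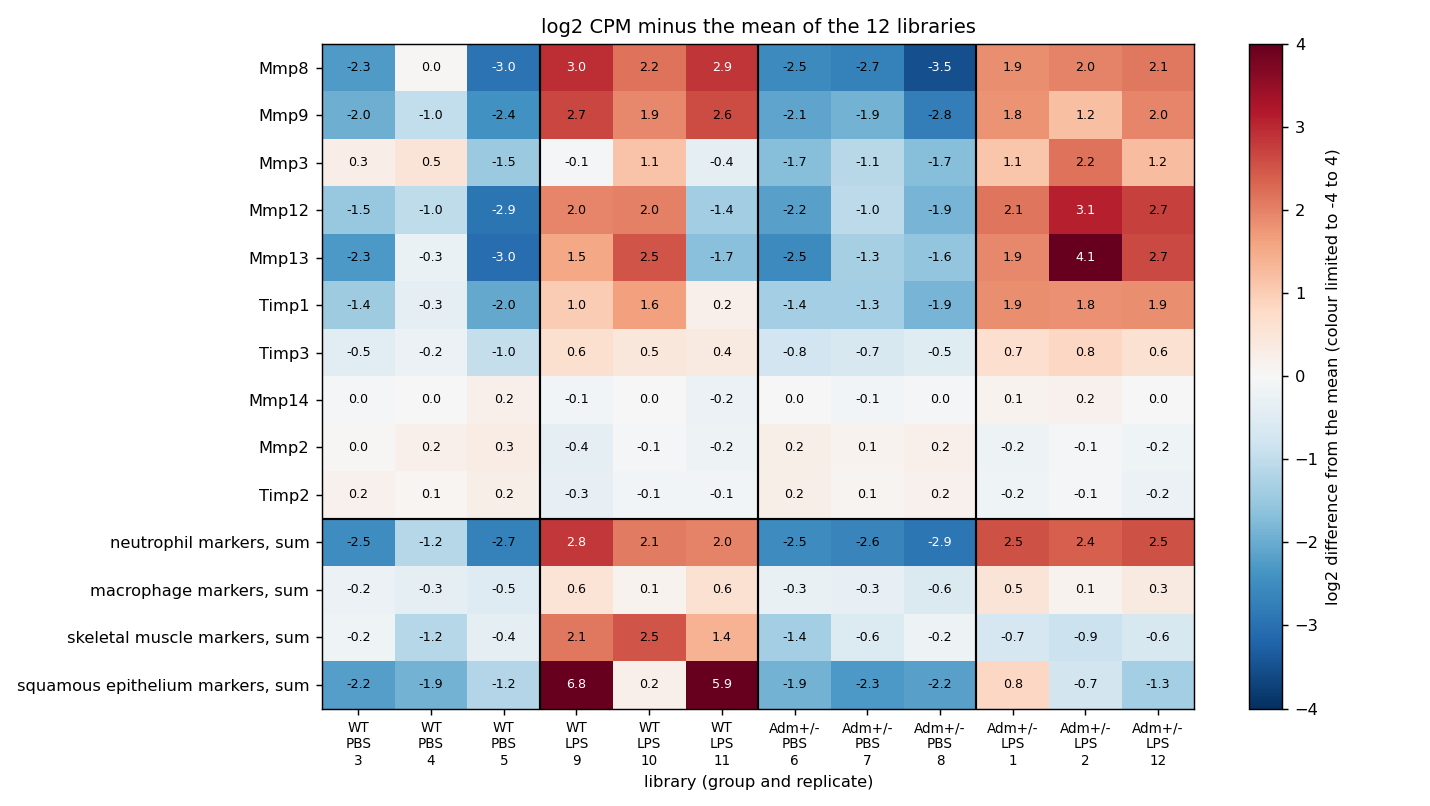
Log2 CPM (prior count 2) of the 10 genes in the 12 libraries, and log2 of the summed CPM of 4 marker lists, each as the difference from its mean over the 12 libraries. Columns are libraries by group and replicate, and black lines separate the groups and the marker lists. *Mmp8*, *Mmp9* and the neutrophil sum are higher in the LPS than in the PBS libraries. WT LPS replicate 11 has the lowest neutrophil sum of its group (2282 CPM) and the lowest *Lcn2* (323 CPM), but not the lowest *S100a8* or *S100a9*. It has 73.6 CPM of *Mmp8* and 143 CPM of *Mmp9*. For *Mmp12* and *Mmp13* it is blue, unlike the other LPS libraries.

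Of 17 other MMP and TIMP genes, 12 were tested, and *Mmp1a*, *Mmp1b*, *Mmp7*, *Mmp10* and *Mmp20* were too low, with at most 0.709 CPM in any library. In WT lungs, 3 of the 12 were up-regulated and 3 down-regulated, and in Adm+/- lungs 4 and 5. These shares of 50% and 75% stood beside 17.6% and 25% of all tested genes. The largest rise was that of *Mmp25*, a membrane-anchored protease of leukocytes, which had 1.05, 2.77 and 1.11 CPM in WT PBS, 15.3, 10.5 and 11.4 CPM in WT LPS, 0.736, 0.878 and 0.596 CPM in Adm+/- PBS and 9.80, 7.71 and 10.9 CPM in Adm+/- LPS. Its log2 fold change was 2.91 in WT (edgeR adjusted p = 0.000316) and 3.67 in Adm+/- lungs (edgeR adjusted p = 7.68e-05), and all LPS libraries lay above all PBS libraries. *Mmp19* rose by 1.04 and 1.29 and *Timp4* by 0.80 and 0.75, while *Mmp11* changed by −0.78 and −0.84 and the membrane-type *Mmp15* by −0.89 and −1.22, all called in both genotypes. *Mmp23* was called in WT lungs, at −0.73. Without WT PBS replicate 5 and Adm+/- PBS replicate 6, *Mmp23* and *Timp4* were not called in WT lungs. *Mmp24* (1.43), *Mmp16* (−0.69), *Mmp17* (−1.03) and *Mmp28* (−1.42) were called in Adm+/- lungs, where the WT values were 0.41, 0.40, −0.75 and −0.48. The differences between genotypes in these responses did not pass (edgeR adjusted p = 0.479, 0.408, 0.992 and 0.408). *Mmp28*, which encodes epilysin, was the 1 gene of the family called between genotypes in LPS, with 12.5, 15.4 and 20.03 CPM in WT and 7.78, 6.70 and 7.27 CPM in Adm+/- LPS lungs, a log2 value of −1.14 (SE 0.21, edgeR adjusted p = 0.0177). The part of the muscle and squamous tissue of the WT LPS libraries in this value cannot be told apart from the genotype.

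Genes around the MMP system were read from lists of their activators, binding partners, related sheddases and substrates. Among 15 tested genes of proenzyme activation, 6 were up-regulated and 1 down-regulated in WT lungs, and 7 were up-regulated in Adm+/- lungs. The share called was 46.7% in each genotype, beside 17.6% and 25% of all tested genes. The granule protease genes *Ctsg* and *Prtn3* rose in both genotypes but had at most 1.05 and 3.73 CPM in any library. *Serpinb2*, a protease inhibitor, rose by 3.56 in WT and 2.19 in Adm+/- lungs. Without WT PBS replicate 5 and Adm+/- PBS replicate 6, only 4 genes of this list were up-regulated in WT lungs, and *Prtn3* was not among them.

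Of 14 genes for binding, inhibition and clearance of MMPs, 2 were up-regulated and 2 down-regulated in WT lungs, and 4 and 1 in Adm+/- lungs. These were 28.6% and 35.7% of the list, beside 17.6% and 25% of all tested genes. *Lcn2*, whose product forms a complex with MMP9 and is itself a neutrophil granule protein, had 38.4, 62.4 and 19.3 CPM in WT PBS, 958, 627 and 323 CPM in WT LPS, 27.1, 35.9 and 31.7 CPM in Adm+/- PBS and 1632, 1187 and 1275 CPM in Adm+/- LPS. It rose by 3.99 in WT (edgeR adjusted p = 0.000266) and by 5.43 in Adm+/- lungs (edgeR adjusted p = 5.91e-05). The genotypes were apart in LPS and *Lcn2* was higher in Adm+/- lungs, opposite to *Mmp8*, with a log2 value of 1.10 that did not pass (edgeR adjusted p = 0.212). Of the 14 tested neutrophil markers, which include *Lcn2*, 3 had a value above 0 in this comparison and 11 below, with a median of −0.24 and none called. *Cd44*, a docking receptor of MMP9, rose by 0.70 in WT and 1.08 in Adm+/- lungs, *Thbs1* by 1.13 in Adm+/- lungs, and *Thbs2*, which promotes uptake of MMP2, changed by −0.79 and −0.71. The broad protease inhibitor *A2m* was called in WT lungs at −1.16.

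Of 9 ADAM genes, 2 were up-regulated and 3 down-regulated in WT lungs, and 3 and 2 in Adm+/- lungs. That was 55.6% of the list in each genotype, beside 17.6% and 25% of all tested genes. *Adam8*, found on leukocytes, rose by 1.6 and 1.96, while *Adam12* changed by −1.57 and −1.19 and *Adam33* by −0.92 and −1.34. *Adam28*, called in WT lungs at 1.71, had 8.47, 7.67 and 8.46 CPM in WT PBS and 47.7, 8.52 and 24.1 CPM in WT LPS. WT LPS replicate 10 was thus level with the controls, and it also had the lowest squamous marker sum of its group, 31.3 CPM against 3027 and 1563 CPM in replicates 9 and 11, whose part in the value was not tested. *Adam28* was not called without WT PBS replicate 5 and Adm+/- PBS replicate 6. The matrix substrates had the smallest share of called genes among these lists. Of 27 genes for collagens, laminins and other substrates, 1 was up-regulated and 2 were down-regulated in WT lungs (*Dcn* at 1.71, *Tnc* at −1.12 and *Lama3* at −0.64), and 1, *Fn1* at 0.66, was up-regulated in Adm+/- lungs. These shares of 11.1% and 3.7% stood beside 17.6% and 25% of all tested genes. The substrates summed to 85345 CPM in WT PBS replicate 5 and 57706 CPM in Adm+/- PBS replicate 6 against 33183 to 41421 CPM in the other 10 libraries. Without both, a fit chosen after seeing the data, the same 3 and 1 substrate genes were called, beside 15.3% and 24.4% of all tested genes.

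The genes whose log2 CPM ran closest to each member over the 12 libraries are given as a description, since all share the contrast of LPS and PBS libraries. Closest to *Mmp8* were the neutrophil gene *Stfa2l1* (Pearson r = 0.991) and *Mmp25* (0.990), and closest to *Mmp9* were the leukocyte genes *Fyb* (0.994) and *Pirb* (0.990). *Mmp12* was closest to *Heatr1* (0.983) and to *Mmp13* (0.979), and *Mmp13* to *Fnbp4* (0.983) and *Rbm17* (0.980). *Mmp3* had the least similar neighbours together with *Mmp14*, which were *Scarb2* (0.934) and *Fgg* (0.929) for *Mmp3* and *Rbsn* (0.934) and *Itga9* (0.932) for *Mmp14*. *Mmp2* was closest to *Cpxm1* and *Lmf2* (both 0.984), *Timp2* to *Sh3rf3* (0.991) and *Prag1* (0.988), *Timp1* to *Piwil4* (0.998) and *Mpp6* (0.989), and *Timp3* to *Egfr* (0.996) and *Ccl11* (0.991).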

How the data were processed

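Whole-lung RNA of 12 mice was sequenced after depletion of ribosomal RNA with a directional kit, 1 library per mouse. The authors trimmed reads with Trim Galore, aligned them with HISAT2 to mm10 and counted them per Gencode gene with featureCounts, and they deposited raw counts without normalization. The Gencode release and the strand setting are not given in the sources used here, so reads of overlapping genes on opposite strands may not have been told apart. Members and gene lists were chosen with earlier results of these data known.

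Protein-coding genes that passed filterByExpr (15885 of 21950, 72.4%) were normalized by TMM and tested in R 4.3.3 with edgeR 4.0.16 (glmQLFit and glmQLFTest) in a single fit of the 12 libraries with 1 coefficient per group (8 residual degrees of freedom). Tested were 5 contrasts, namely the LPS effect within each genotype, the difference of both effects, and Adm+/- against WT in each treatment. SEs and 95% intervals were derived from the F statistic. RPKM used the joined exon length from Gencode M21, in which 99.7% of the genes were found. Motifs were searched in RefSeq promoters (GRCm38.p6). The code of the fit was run on simulated counts with changes set in WT LPS only. Such counts hold none of the tissue differences between these libraries, so the run says nothing about their effect.

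Totals of 22382535 to 38062873 counts set the counting precision, and without molecular identifiers such precision covers counting error only. All 12 pairs of libraries within a group differed by more than sampling noise, with 9.92 to 112 for chi-square over its degrees of freedom. Named were all 10 members, called genes of the other MMP and TIMP genes, the 3 called genes of largest change per related list and LPS contrast, the 3 most abundant genes of a cell type list, of which examples are given, and the 2 genes most similar to each member over the 12 libraries, and 1 gene that this rule names is not reported here. Alternatives were RLE size factors, DESeq2 1.42.0, limma-voom (limma 3.58.1), glmTreat, other filters on genes and folds, all annotated genes, a robust fit, fits of the compared libraries alone, and fits without single libraries or without WT PBS replicate 5 and Adm+/- PBS replicate 6, the last applied to the gene lists after seeing the data.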

Additional observations from a re-analysis of the deposited data

How the results depend on the processing

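No paired analysis was possible because no replicate number is shared between groups. Over 12 other settings (11 for the difference of LPS responses, which needs all groups), 4 to 7 of the 10 genes were called in WT lungs, 7 to 9 in Adm+/- lungs and 0 in each comparison between genotypes. Leaving out single libraries gave 4 to 6 in WT lungs and 7 in Adm+/- lungs. Signs turned for some values that had not passed the threshold. In Adm+/- against WT PBS lungs, *Mmp13* was 0.26 with limma-voom, *Mmp2* was −0.016 and *Timp2* −0.012 with all annotated genes, and *Mmp12* was −0.090 without WT PBS replicate 5 and Adm+/- PBS replicate 6, a setting in which the difference of LPS responses of *Mmp9* was 0.10. Leaving out single libraries, the LPS response of *Mmp3* in WT lungs ranged from −0.19 to 0.80. The difference of LPS responses ranged from −0.0032 to 0.14 for *Mmp2*, −0.38 to 1.51 for *Mmp8*, −0.70 to 0.066 for *Mmp9* and −0.048 to 0.063 for *Timp2*. Adm+/- against WT in PBS ranged from −0.057 to 0.061 for *Mmp2*, −0.47 to 0.50 for *Mmp12*, −0.74 to 1.25 for *Mmp13*, −0.72 to 0.18 for *Timp1*, −0.032 to 0.049 for *Timp2* and −0.29 to 0.059 for *Timp3*, and in LPS from −0.041 to 0.070 for *Timp2*. The cause was not tested.

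Counts over all genes moved by more than 1.5 times as follows. The difference of LPS responses had 23 calls, against 168 with DESeq2, 1 with limma-voom and 13 with glmTreat. Adm+/- against WT in LPS had 325, against 803 with DESeq2, 133 with glmTreat and 548 without the 2 libraries named above. The LPS response had 2791 calls in WT lungs, against 1001 with glmTreat, 1399 above an absolute log2 fold change of 1 and 1152 with the WT libraries alone, and 3968 in Adm+/- lungs, against 1695 and 1888 for the first 2 of these. Among fits without 1 library, the difference had 65 calls when WT LPS replicate 10 was left out, and 5 to 11 for each of the other libraries (5 for Adm+/- PBS replicate 7) except WT PBS replicate 5 and WT LPS replicate 11, without which it moved less. Adm+/- against WT in LPS fell to 81, 86 and 89 without Adm+/- LPS replicates 1, 2 and 12, to 165 without WT LPS replicate 11 and to 215 without Adm+/- PBS replicate 7, and rose to 550 without WT LPS replicate 10 and 573 without WT PBS replicate 5. The WT LPS response fell to 1443 without WT LPS replicate 9. Low counts of *Mmp3*, *Mmp12* and *Mmp13* and 3 mice per group limit what these comparisons can show.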
